A study of Mus musculus with 2 samples.

Results

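The 81 protein-coding genes of cytochrome P450 families 1 to 4 were examined in open chromatin of the newborn mouse stomach. They are the genes of GENCODE M21 (build mm10) whose symbol is Cyp1, Cyp2, Cyp3 or Cyp4 followed by a letter, among 21911 protein-coding genes in all. Family 1 had 3 genes, family 2 had 49, family 3 had 9 and family 4 had 20, in 22 subfamilies of which 13 hold a single gene. The data are DNase-seq of stomach tissue from B6NCrl mice at postnatal day 0, a method that sequences the ends left where the enzyme DNase I cuts accessible DNA. There was 1 group of 2 biological replicates with 1 library each, no treatment, and no genotype other than the strain. One donor is named for both libraries in the labels, sex is recorded as not collected, and replicate 2 names a pair of sequencing instruments while replicate 1 names none. Bulk tissue was assayed, so fewer cells of a type and less accessibility per cell cannot be told apart.

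Cytochrome P450 enzymes are haem proteins that insert an oxygen atom into lipophilic molecules, with electrons passed on by P450 oxidoreductase in the membrane of the endoplasmic reticulum. Families 1 to 3 are best known in the liver for the oxidation of drugs, dietary toxins and steroids, and family 4 for hydroxylating the far end of fatty acids and eicosanoids. Many are also made in the epithelia of gut, lung, kidney, skin and nose. In rodents the families have grown by tandem duplication, so that close copies stand side by side in clusters. Several are switched on by sensors of foreign compounds, such as the aryl hydrocarbon receptor (AHR), and several liver genes by hepatocyte nuclear factors (HNF).

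A peak found in both replicates, with an overlap of at least 1 bp, is called a shared region here, and a gene has an open promoter when a shared region lies within 1 kb of any of its annotated starts. The first sequences shown are open promoters of 3 Cyp2c genes with the HNF4 string CAAAGTCCA in capitals, that of Cyp3a13 with both its AP-1 strings (TGANTCA) in capitals, and the intronic region of Cyp1a1 with an AHR string (TNGCGTG, here on the opposite strand) in capitals. They were read 5′ to 3′ on the strand of the gene from the RefSeq genome sequence of GRCm38 (mm10). All are shared regions, each given over its whole length.
Cyp2c65, chr19:39060816-39061005, plus strand: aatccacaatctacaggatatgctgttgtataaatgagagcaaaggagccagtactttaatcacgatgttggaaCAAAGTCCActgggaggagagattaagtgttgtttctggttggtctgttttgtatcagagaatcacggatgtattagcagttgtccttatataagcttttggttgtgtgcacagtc
Cyp2c68, chr19:39741076-39741245, minus strand: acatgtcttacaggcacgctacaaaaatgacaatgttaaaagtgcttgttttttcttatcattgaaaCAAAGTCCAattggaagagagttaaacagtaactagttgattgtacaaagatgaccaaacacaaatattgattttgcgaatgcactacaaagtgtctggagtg
Cyp2c70, chr19:40187316-40187465, minus strand: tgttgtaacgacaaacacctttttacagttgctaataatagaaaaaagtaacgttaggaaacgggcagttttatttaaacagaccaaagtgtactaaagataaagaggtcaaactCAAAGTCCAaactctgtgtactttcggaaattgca
Cyp3a13, chr5:137921616-137921765, minus strand: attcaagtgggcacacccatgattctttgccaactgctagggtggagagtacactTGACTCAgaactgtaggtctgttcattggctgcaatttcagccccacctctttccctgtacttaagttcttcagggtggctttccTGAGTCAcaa
Cyp1a1 intron, chr9:57696056-57696265, plus strand: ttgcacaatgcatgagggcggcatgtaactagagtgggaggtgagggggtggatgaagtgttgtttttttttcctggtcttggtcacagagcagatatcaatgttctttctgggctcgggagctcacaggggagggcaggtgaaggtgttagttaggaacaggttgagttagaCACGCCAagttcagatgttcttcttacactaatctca

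Fewer of the P450 genes had an open promoter than of protein-coding genes as a whole. A shared region lay at a start of 32 of 81 P450 genes (39.5%, 95% Wilson interval 29.6 to 50.4), against 66.4% of all protein-coding genes. Replicate 1 alone gave 35 P450 genes with a promoter peak (43.2%) against a background of 68.2%, and replicate 2 alone gave 36 (44.4%) against 69.4%. In 42 P450 genes (51.9%) neither replicate had a promoter peak, against 29.2% of all genes. A further 7 had one in a single replicate (8.64%, against 4.03%). Of these Cyp3a57, Cyp2a22 and Cyp2d9 had it in replicate 1, and Cyp3a16, Cyp2b19, Cyp1a1 and Cyp4f15 in replicate 2. The intervals cover counting error only, and copies in 1 cluster share much of their sequence, so they are no sample of independent genes. The number of reads per library is unknown here, so a gene without a peak is one in which none was called at this depth.

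The members differed by subfamily, as shown in the plot of genes by promoter state. In subfamilies with 1 gene, 9 of 13 promoters were open, which is near the 66.4% of all protein-coding genes. In the clustered Cyp4f subfamily 7 of 9 were open. Cyp2d had 4 of 8 open and Cyp2c 6 of 15. Open promoters were few in the other large subfamilies, with 2 of 8 in Cyp2j, 1 of 4 in Cyp2a, 1 of 5 in Cyp2b, 1 of 8 in Cyp4a and 1 of 9 in Cyp3a. Both Cyp1a genes lacked one.

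**Figure D1:**
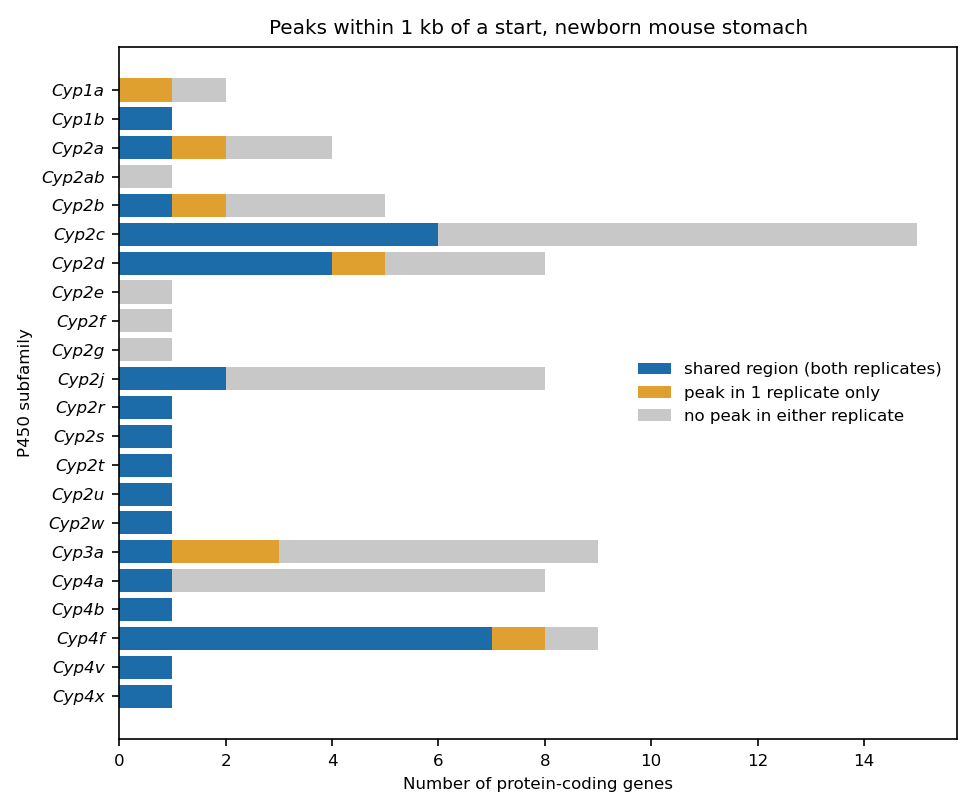
Number of protein-coding genes (horizontal axis) in each P450 subfamily (vertical axis) with a shared region within 1 kb of a start (blue), a peak there in 1 replicate only (orange) or in neither (grey). Cyp4f had 7 of 9 genes open, while Cyp3a and Cyp4a had 1 open gene each.

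The signal of a peak is the authors' value, with no unit stated, and it serves here only to rank and describe peaks within a replicate's list. Across the 32 open P450 genes the strongest promoter region had a median signal of 61.5 in replicate 1 and 73.5 in replicate 2, against 89 and 100 for all open protein-coding genes. Its median rank within the peak lists, as the mean percentile of both replicates, was 74.0 for P450 genes and 92.6 for all. The lower and upper quartiles were 57.0 and 90.7 for P450 genes and 80.2 and 97.2 for all. The P450 genes thus held both strong and weak promoters, with 9 above percentile 90 and 6 below percentile 50. Their ranks lay lower than those of all open genes, whose median is itself above 90. In 22 of the 32 the strongest region was centred within 150 bp of an annotated start, a count not made over all open genes. In 26 of 32 the value was higher in replicate 2, whose list also has the higher median over all peaks (52 against 44 in replicate 1).

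**Figure D2:**
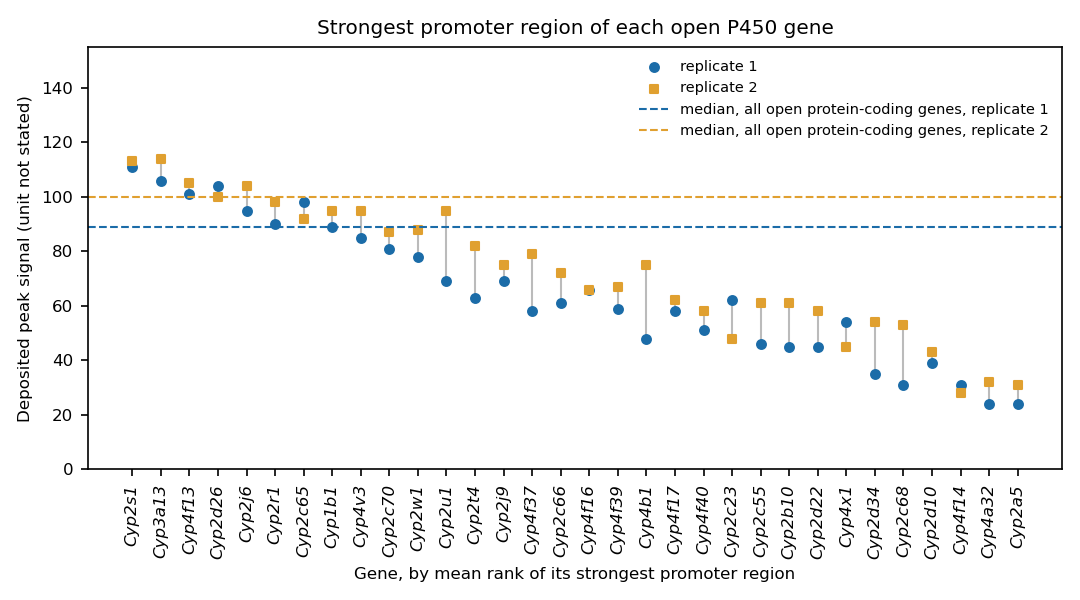
Deposited signal (vertical axis, unit not stated) of the strongest promoter region of each of the 32 open P450 genes (horizontal axis, ordered by mean rank), with replicate 1 as blue circles and replicate 2 as orange squares, and dashed lines at the medians over all open protein-coding genes (89 and 100). Cyp2s1, Cyp3a13, Cyp4f13, Cyp2d26 and Cyp2j6 lie above the dashed line in replicate 1 and at or above it in replicate 2, and Cyp4a32 and Cyp2a5 are the lowest in replicate 1.

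Family 1 holds the enzymes that activate polycyclic aromatic hydrocarbons and is the classic target of AHR. Cyp1b1, which also hydroxylates oestradiol (chr17:79701537-79715061), was open, with promoter signals of 89 in replicate 1 and 95 in replicate 2 and 4 shared regions in its locus. Cyp1a2, the liver enzyme of caffeine and arylamines (chr9:57676937-57683703), had no peak of either replicate in its gene body or within 10 kb. Cyp1a1 (chr9:57687928-57703824) had a promoter peak only in replicate 2. In its intron the region printed above had weak signals of 30 in replicate 1 and 35 in replicate 2, a mean percentile of 19.7, and the other region of its locus (86 and 92) lay at a start of Edc3. The intronic region held 1 AHR string and lay at −1452.5 bp from the nearer of the gene's 2 starts. It is thus upstream of that start, and intronic only as counted from the other start.

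Single-gene subfamilies of family 2 ranged from the strongest promoter of all members to a locus without a peak. Cyp2s1, an enzyme of epithelia outside the liver (chr7:25802475-25816913), ranked highest of the members, with 111 in replicate 1 and 113 in replicate 2. Cyp2r1, the vitamin D 25-hydroxylase (chr7:114549682-114562972), had 90 and 98, and Cyp2w1 (chr5:139352617-139357033) had 78 and 88. The Cyp2w1 value comes from a later start, and regions within 1 kb of its most upstream start had 62 and 65, and 52 and 76. Cyp2u1, a hydroxylase of long-chain fatty acids, had 69 and 95, and Cyp2t4 had 63 and 82. These 5 genes were open in both libraries, while Cyp2e1, the ethanol-oxidising enzyme of liver (chr7:140763739-140774987), had no peak of either replicate in its locus. Cyp2f2, which activates naphthalene in the club cells of the airway, and Cyp2g1, an olfactory enzyme, had no promoter peak, but 3 and 1 shared regions in their loci. Cyp2ab1 also had no promoter peak, and all 4 regions of its locus lay at starts of Parl.

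In the Cyp2c subfamily, which turns arachidonic acid into epoxides and oxidises many drugs, 6 genes were open. Cyp2c65 (chr19:39061015-39093944) had 98 in replicate 1 and 92 in replicate 2, and 3 separate shared regions within 1 kb of its start. Cyp2c70, which in mice makes muricholic acids in bile acid synthesis (chr19:40153353-40187333), had 81 and 87, and Cyp2c66 had 61 and 72. These 3 stood above the other open Cyp2c genes in mean rank. Cyp2c23, an epoxygenase of the kidney, had 62 and 48, from a region at the far edge of the promoter window, and Cyp2c55 had 46 and 61. Cyp2c68 was lowest with 31 and 53. The others, Cyp2c29, Cyp2c37, Cyp2c38, Cyp2c39, Cyp2c40, Cyp2c50, Cyp2c54, Cyp2c67 and Cyp2c69, had no promoter peak in either replicate and no shared region in their loci.

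The Cyp2d genes are the mouse relatives of the human drug-oxidising CYP2D6. Cyp2d26 was strongest, with 104 in replicate 1 and 100 in replicate 2, followed by Cyp2d22 with 45 and 58. Cyp2d34 had 35 and 54, and Cyp2d10 had 39 and 43. The gap between Cyp2d26 and the other open genes of the subfamily was wider than any difference between replicates there. Cyp2d9 had one at the promoter only in replicate 1, and Cyp2d11, Cyp2d12 and Cyp2d40 in neither. Of the Cyp2j epoxygenases, Cyp2j6 had 95 and 104 and Cyp2j9 had 69 and 75, and Cyp2j5, Cyp2j7, Cyp2j8, Cyp2j11, Cyp2j12 and Cyp2j13 had no promoter peak. Among Cyp2a and Cyp2b genes, Cyp2b10, the phenobarbital-inducible target of the constitutive androstane receptor, had 45 and 61. Cyp2a5, which oxidises coumarin and nicotine, was among the weakest open genes. Cyp2a22 and Cyp2b19 had a promoter peak in 1 replicate, and Cyp2a4, Cyp2a12, Cyp2b9, Cyp2b13 and Cyp2b23 in neither.

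Family 3 in the mouse is the Cyp3a subfamily, the counterpart of the main human drug-metabolising enzyme CYP3A4. Cyp3a13 (chr5:137892932-137921619), which lies apart from the others and is known from the intestine, had the second promoter in rank of all members, with 106 in replicate 1 and 114 in replicate 2. Its locus held 5 shared regions. The other 8 genes stand in a cluster on the same chromosome, and none had a shared region in its locus. Among them are Cyp3a11, the abundant form of adult liver, and Cyp3a16, Cyp3a41a, Cyp3a41b and Cyp3a44. Cyp3a25, Cyp3a57 and Cyp3a59 complete the cluster.

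Family 4 divided by subfamily. In the Cyp4f cluster, whose enzymes inactivate leukotriene B4 and hydroxylate long fatty acids, Cyp4f13 (chr17:32924688-32947402) had 101 in replicate 1 and 105 in replicate 2. Cyp4f37 had 58 and 79, Cyp4f16 had 66 and 66, and Cyp4f39 had 59 and 67. Cyp4f17 had 58 and 62 and Cyp4f40 had 51 and 58, so the strongest values of these 5 genes lay close together. Those of Cyp4f37 and Cyp4f39 come from later starts, and at its most upstream start Cyp4f39 had 37 and 52. Cyp4f14 was the weakest open Cyp4f promoter, with 31 and 28. Cyp4f15, with a promoter peak in replicate 2 only, and Cyp4f18, with none, had 5 and 4 shared regions in their loci. Cyp4f37 was the only open member whose shared promoter region lay away from its most upstream start. The single-gene subfamilies were all open, with 85 and 95 at Cyp4v3, an enzyme of fatty acids in the eye, 48 and 75 at Cyp4b1, known from lung, and 54 and 45 at Cyp4x1. The Cyp4x1 region was centred 716.5 bp from the nearest start, and the region over that gene's start had 26 and 35. In contrast, of the Cyp4a genes, fatty acid hydroxylases under the receptor PPAR alpha in liver and kidney, only Cyp4a32 was open, at a low rank. Cyp4a10, Cyp4a12a, Cyp4a12b, Cyp4a14, Cyp4a29, Cyp4a30b and Cyp4a31 had no promoter peak in either replicate and no shared region in their loci.

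Some promoter regions could belong to more than the P450 gene. The open start of 6 members, Cyp2u1, Cyp4x1, Cyp2s1, Cyp2d10, Cyp2d34 and Cyp2c55, lay within 1 kb of a start of another annotated gene, and the accessibility of each pair cannot be told apart. For Cyp2w1, 1 of its 3 promoter regions also lay within 1 kb of a start of Cox19. The number of annotated starts also bears on the count, because each start adds a window. Members had a median of 2 starts and all protein-coding genes 3. Among genes with 1 start, 7 of 31 members were open (22.6%, interval 11.4 to 39.8), against 35.2% of all. With 2 or 3 starts the shares were 46.9% of 32 members (interval 30.9 to 63.6) and 55.1% of all genes. With 4 or more starts they were 55.6% of 18 members (interval 33.7 to 75.4) and 89.2% of all. Only with 4 or more starts did the members' interval lie below the share of all genes, and these intervals cover counting error only.

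Whole P450 loci, promoters included, held few accessible regions, with wide variation between members. A locus takes in the gene and 10 kb beyond each of its ends, and the median was 1 shared region for P450 genes and 4 for all protein-coding genes, although the members' median gene length was 23.15 kb against 17.4 kb. No shared region lay in 38 member loci (46.9%), against 18% of all loci, and no peak of either replicate in 19 (23.5%), against 13.9%. These counts include regions at promoters. With regions at annotated starts left out, the medians were 0 for members and 1 for all genes. Then 58.0% of member loci and 31.9% of all loci had no shared region. At the other end, 14 members had 5 or more, 19 had 2 to 4, and 10 had 1. The 32 open members had a median of 3 and the 49 others a median of 0, although 11 of those 49 had at least 1. Neither these classes nor the 11 were counted over all protein-coding genes, whose median was 4. In all there were 139 distinct regions, 130 of them in a single member locus. Of the 139, 44 lay at member starts, 28 in introns and 9 in exons of members, 34 in flanks between genes, 15 at starts of other genes and 9 in flanks inside another gene.

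The richest loci differed in where their regions lay. Cyp2w1 had 10 regions, of which 2 lay at starts of Cox19 alone and another was near starts of both genes. Its strongest region away from starts (75 in replicate 1 and 81 in replicate 2) lay upstream, inside another gene. Cyp4f39, which in skin hydroxylates the long fatty acids of barrier lipids, had 8 regions, 6 of them away from starts, the strongest in an exon (86 and 87). Cyp4v3 had 7, with the strongest upstream inside another gene (75 and 73). Cyp2s1, Cyp2t4, Cyp4x1 and Cyp2b19 had 6 each. At Cyp2s1 the strongest region away from starts lay beyond the gene's far end (76 and 94), at Cyp4x1 likewise (60 and 73), and at Cyp2t4 it was the only region away from starts (58 and 86), since 4 others lay at starts of Egln2. Cyp2b19, an epoxygenase of keratinocytes with no open promoter, differed from these: all 6 of its regions lay beyond the gene's end, between 0.745 and 9.395 kb from it, the strongest with 74 and 67.

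In some loci a region inside the gene outranked the promoter. Cyp2c23 had 4 intronic regions, and the strongest (chr19:44013956-44014125) had 101 in replicate 1 and 108 in replicate 2, above the 62 and 48 of its promoter region. Cyp2b10 had 3 intronic regions, the strongest (chr7:25902336-25902585) with 92 and 90, above the 45 and 61 of its promoter. At Cyp2c65 the order was the other way round, with 68 and 63 in the upstream flank.

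Whole clusters differed in the density of accessible regions, as the map of the 8 clusters shows. With members joined when less than 500 kb apart, 71 genes fell into 8 clusters and 10 stood alone. The genome had 3.87 shared regions per 100 kb. The Cyp4f39 to Cyp4f13 cluster had 7.97 (41 regions), Cyp2d22 to Cyp2d26 4.51 (20 regions) and Cyp1a2 to Cyp1a1 4.27 (2 regions). The Cyp2s1 to Cyp2t4 cluster had 3.12 (43 regions), Cyp4x1 to Cyp4b1 1.96 (11 regions), Cyp2c55 to Cyp2c70 1.08 (13 regions) and Cyp2j13 to Cyp2j5 1.07 (7 regions). The sparsest was Cyp3a57 to Cyp3a59 with 0.127, a single shared region in 788 kb. Within the clusters the regions were uneven. In the Cyp2c cluster, Cyp2c55, Cyp2c65 and Cyp2c66 at its left end had 4, 5 and 1 regions in their loci. Cyp2c29, Cyp2c38, Cyp2c39 and Cyp2c67, which follow them along the cluster, had none.

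**Figure D3:**
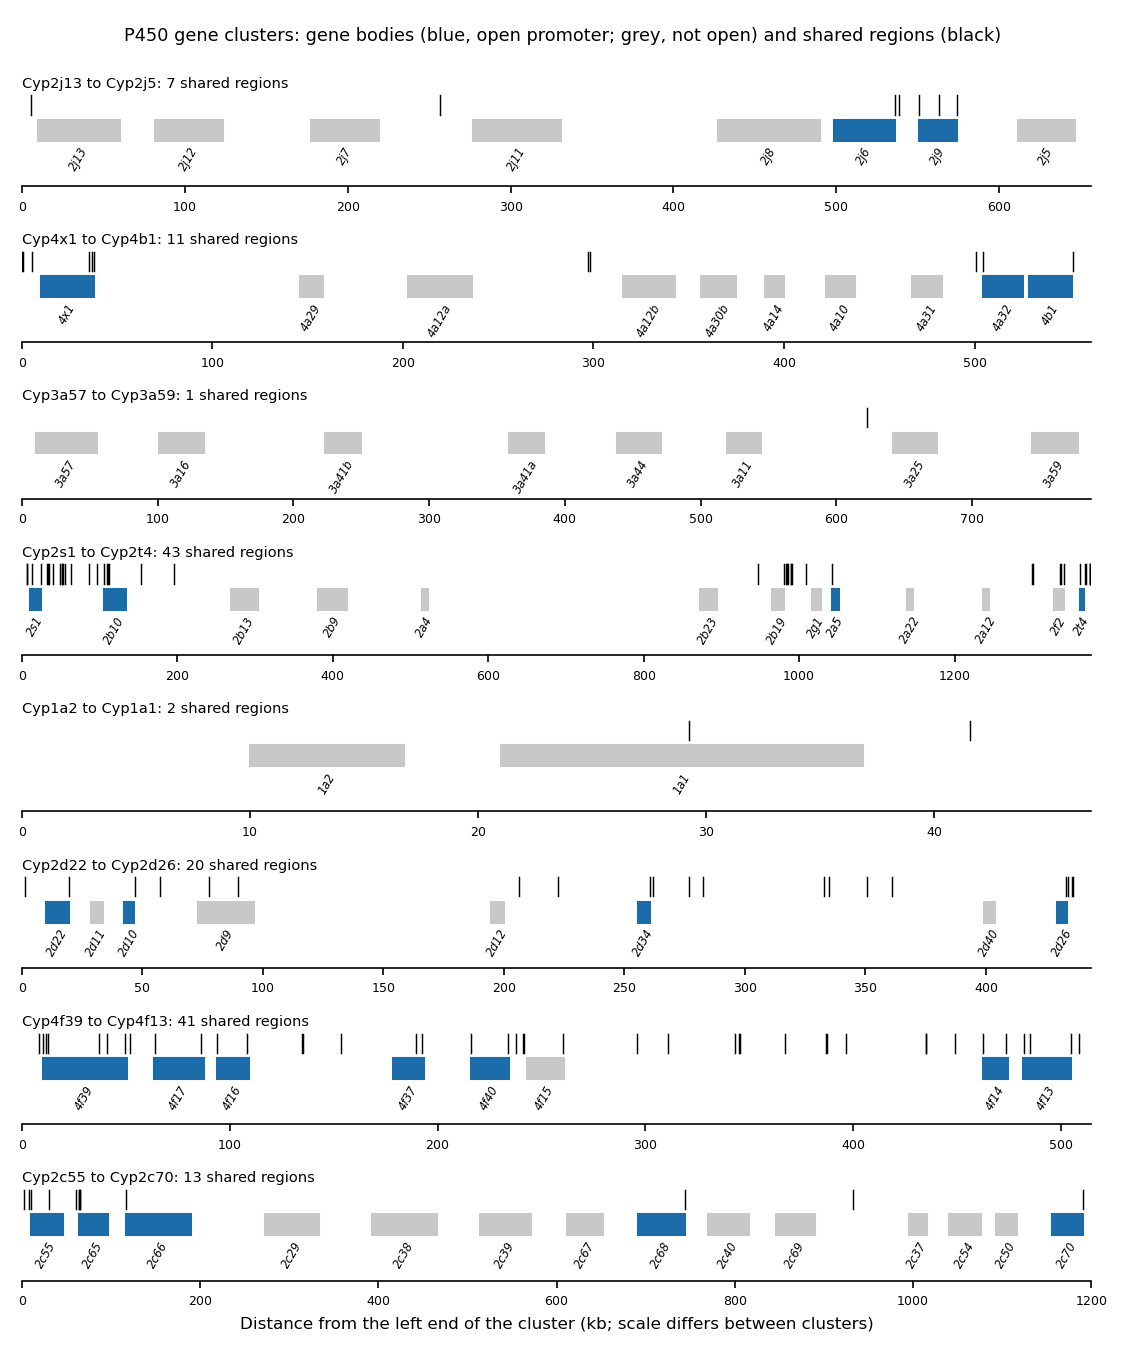
Gene bodies of the members (blue with an open promoter, grey without) and shared regions (black ticks) along the 8 clusters, each drawn to its own scale in kb from its left end. Ticks are dense over the Cyp4f cluster (41 regions) and gather at the left end of the Cyp2c cluster, and the Cyp3a cluster has 1.

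The members' promoters also differed from those of other genes in sequence, a measure that does not use DNase. CpG content, as observed over expected CpG within 1 kb of the starts, had a median of 0.139 in members and 0.362 in all protein-coding genes. It was 0.204 in open members and 0.102 in the others. Cyp1b1 at 0.649 and Cyp2u1 at 0.633 were highest, and both were open. Within bands of CpG content the members' shares were at or above those of all genes. Below 0.2, 15 of 61 members were open (24.6%, interval 15.5 to 36.7), against 11.4% of all genes. At 0.2 to 0.3 the counts were 9 of 12 members (75%, interval 46.8 to 91.1) against 55.4%. All 8 members at 0.3 or above were open, against 86.8% of all genes at 0.3 to 0.5 and 90.8% above that. In each band from 0.2 upward the members' interval covered the share of all genes. Among members open at low CpG were Cyp3a13 at 0.0735, Cyp4f14 at 0.0987 and Cyp2c66 at 0.111.

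Close copies also limit what short reads can show. Per the deposited file lists a track of unique reads was made from the same filtered alignments. As a measure of this, the share of 32-base words within 1 kb of the starts that occur once in the genome had a median of 88.9% in members (92.6% in open members, 78.7% in the others) and 97.1% in all genes. It was lowest at Cyp3a41b (10.1%) and Cyp3a41a (10.6%), then Cyp4a12a (27.3%) and Cyp4a12b (30.4%). Below 50% unique words 1 of 10 members was open, Cyp2a5 at 38.4%, against 5.30% of all genes. Between 50 and 80%, 5 of 21 members were open (23.8%), against 28.1%. Where at least 80% of the words were unique, 26 of 50 members were open (52%), against 73.6%. Across whole clusters the share was 84.4% in Cyp4f39 to Cyp4f13, 66.6% in Cyp2d22 to Cyp2d26, 92.8% in Cyp1a2 to Cyp1a1 and 62.2% in Cyp2s1 to Cyp2t4. It was 57.2% in Cyp4x1 to Cyp4b1, 55.7% in Cyp2c55 to Cyp2c70, 73.7% in Cyp2j13 to Cyp2j5 and 51.7% in Cyp3a57 to Cyp3a59. The sparsest cluster had the lowest share, but the order of the others did not follow region density throughout, since the sparse Cyp2j cluster had a higher share than the denser Cyp2d and Cyp2s1 to Cyp2t4 clusters. The part of repeated sequence in the counts was not tested.

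**Figure D4:**
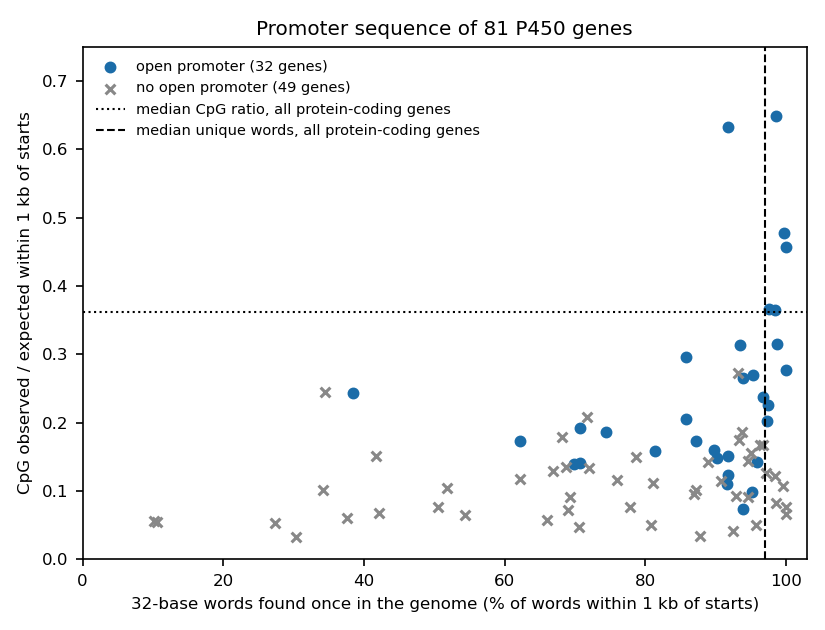
Observed over expected CpG (vertical axis) against the share of 32-base words found once in the genome (horizontal axis, percent), both within 1 kb of the starts, for 32 open (blue circles) and 49 other P450 genes (grey crosses), with lines at the medians of all protein-coding genes (0.362 and 97.1%). Every member at a ratio of 0.3 or above is open, and Cyp2a5 is the only open member below 50% unique words.

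Strings known as binding motifs were searched on both strands of the 300 bases that run 250 before and 50 onward at the most upstream start. A match is a description and not a bound site, and a missing match says only that these letters are not in this window. The HNF4 string CAAAGTCCA was in 3 of 32 open members and 7 of 49 other members, and in 0.420% of all protein-coding genes. All 10 members are Cyp2c or Cyp3a genes. The sites are printed with up to 10 bases on either side, the string in capitals, because open and other Cyp2c genes carry similar sequence.
Cyp2c65 (open), chr19:39060880-39060908, plus strand: gatgttggaaCAAAGTCCActgggaggag
Cyp2c68 (open), chr19:39741160-39741188, minus strand: atcattgaaaCAAAGTCCAattggaagag
Cyp2c70 (open), chr19:40187332-40187360, minus strand: aggtcaaactCAAAGTCCAaactctgtgt
Cyp2c40 (not open), chr19:39812841-39812869, minus strand: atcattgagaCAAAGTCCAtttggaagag
Cyp2c67 (not open), chr19:39649149-39649177, minus strand: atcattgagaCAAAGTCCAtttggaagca
Cyp2c69 (not open), chr19:39886826-39886854, minus strand: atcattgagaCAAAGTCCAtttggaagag
Cyp3a11 (not open), chr5:145879945-145879973, minus strand: aagagagtacCAAAGTCCAgtgatgcaaa
Cyp3a16 (not open), chr5:145469804-145469832, minus strand: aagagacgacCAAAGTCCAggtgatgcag
Cyp3a41a (not open), chr5:145720213-145720241, minus strand: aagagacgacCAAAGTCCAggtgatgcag
Cyp3a41b (not open), chr5:145584807-145584835, minus strand: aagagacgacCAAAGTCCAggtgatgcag
In the 3 open genes the string lay inside the shared region. Unique 32-base words within 1 kb of the starts made up 62.2% at Cyp2c68, 89.7% at Cyp2c70 and 91.8% at Cyp2c65. Among the 7 not open the share was 10.1% at Cyp3a41b, 10.6% at Cyp3a41a, 34.2% at Cyp2c40 and 41.7% at Cyp2c69. It was 54.3% at Cyp3a16, 62.2% at Cyp2c67 and 95.7% at Cyp3a11. Where few words are unique, closed chromatin and reads that could not be placed cannot be told apart.

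The FOXA string TGTTTAC, of factors that open chromatin in endoderm and liver, was in 0 of 32 open members and 10 of 49 others (20.4%), against 3.05% of all genes. Cyp3a11, Cyp3a16, Cyp3a41a, Cyp3a41b and Cyp3a44 held it, and all but Cyp3a44 also the HNF4 string. The other 5 were Cyp2ab1, Cyp2c38, Cyp2c39, Cyp2j5 and Cyp4a14. The site is shown for Cyp3a11 and Cyp3a44, as examples of the copies, with the string in capitals. Unique words within 1 kb of the starts made up 95.7% at Cyp3a11 and 69.3% at Cyp3a44.
Cyp3a11 (not open), chr5:145880036-145880062, minus strand: ctggcactgtTGTTTACtgatgccaca
Cyp3a44 (not open), chr5:145806044-145806070, minus strand: atggcactgtTGTTTACtgatgtcaca
The AP-1 string TGANTCA, of the Fos and Jun factors, was in 6 of 32 open members (18.8%) and 1 of 49 others, Cyp4a29, against 6.91% of all genes. In Cyp3a13 and Cyp2u1 it lay inside the shared region, and in Cyp2s1, Cyp4b1, Cyp4f16 and Cyp4f37 outside. Cyp4f37 counts as open through a later start, and no shared region lay within 1 kb of the start searched here. The sites of Cyp2u1, Cyp4f16 and Cyp4f37 are shown, the last pair as copies that read the same.
Cyp2u1 (open), chr3:131303185-131303211, minus strand: cggttgacctTGAGTCAtgtagccggc
Cyp4f16 (open), chr17:32536379-32536405, plus strand: cctttgccctTGACTCAgaggtgctgc
Cyp4f37 (open), chr17:32621076-32621102, plus strand: cctttgccctTGACTCAgaggtgctgc

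Other strings were uneven between open and other members too. The GATA string AGATAAG was in 4 of 32 open members, Cyp2s1, Cyp2r1, Cyp4f37 and Cyp4f40, and 0 of 49 others, against 2.80% of all genes. At Cyp4f37 the start searched was not the open one. The C/EBP string TTGCNNAA was in 3 of 32 open and 13 of 49 other members (26.5%), against 10.6%. The TATA box TATAAA was in 9 of 32 and 20 of 49, against 12.6%, and the GC box GGGCGG in 7 of 32 and 4 of 49, against 43.0%. The CCAAT box was in 16 of 32 and 22 of 49, against 39.0%. The AHR string was in Cyp2c68 of the open and Cyp1a1 of the other members, against 5.81%. The NRF2 string TGACNNNGC, which can share bases with AP-1, was in 4 of 32 and 1 of 49, against 12.5%. Because copies share their promoters, genes with the same string are not separate observations, and these differences were not tested.

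**Figure D5:**
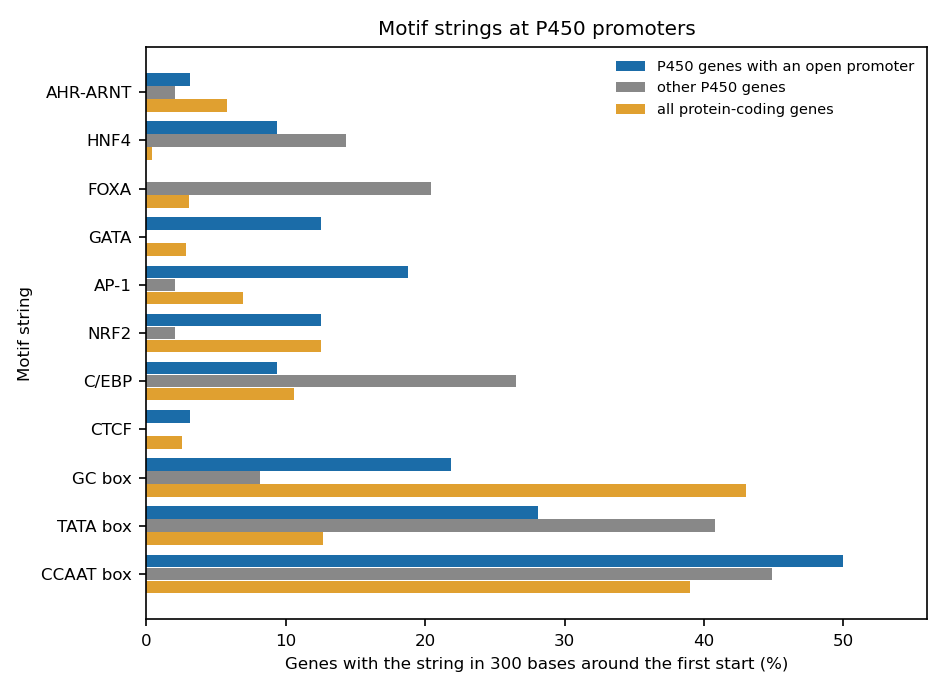
Percent of genes (horizontal axis) with each motif string (vertical axis) in 300 bases around the most upstream start, for 32 open P450 genes (blue), 49 other P450 genes (grey) and all protein-coding genes (orange). FOXA appears in other members only (20.4%), AP-1 mostly in open members (18.8%), and the HNF4 string in both, above the 0.420% of all genes.

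The same strings were then counted in all 139 regions of member loci and in shared regions at large. The HNF4 string was in 6 regions (4.32%, interval 1.99 to 9.10), against 1.03% of all 105543 shared regions. These were the promoters of Cyp2c65, Cyp2c68, Cyp2c70 and Cyp4f14, an intron of Cyp2c23 and the flank of Cyp2j9. Regions of related Cyp2c genes are not separate observations, so the interval covers counting error only. The string of CTCF, an organiser of chromatin loops, was in 18 regions (12.9%, interval 8.35 to 19.5), against 9.25%, among them 4 of the 10 at Cyp2w1. FOXA was in 10 (7.19%), against 4.77%, AP-1 in 19 (13.7%), against 13.1%, and the AHR string in 5 (3.60%), against 2.64%. The spaced repeats of nuclear receptors were found in 0 of 139, with an upper Wilson bound of 2.69%, and each of the 4 was in at most 0.0578% of all shared regions, too rare for a count of 0 to say anything of the members.

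The partners of P450 enzymes were more often open than the members, against the same background of 66.4%. The lists were not matched to the members in annotated starts or CpG content. Of all genes with 4 or more starts, 89.2% were open. All 16 genes of haem synthesis and electron supply had an open promoter, with a median of 6.5 shared regions per locus. Por, the oxidoreductase that feeds electrons to every member, had 13 regions and promoter signals of 118 in replicate 1 and 129 in replicate 2, Cyb5r3 had 10 regions and Alad 8. Of 20 sensors and regulators 19 were open (median 8 regions), among them Rxra with 19 and Rxrb with 12. Nr1i3, the constitutive androstane receptor, was the exception, with no promoter peak in either replicate. Ahr had 90 and 99, Nr1i2, the pregnane X receptor, 105 and 106, and Hnf4a 96 and 98. Of 25 conjugating and other detoxifying enzymes 23 were open (median 7 regions), led by Ugt1a1 with 14, Ephx1 with 13 and Sult2b1 with 12, while only replicate 2 had a promoter peak at Fmo1 and Nat1. P450 genes of other families were nearer to the members, with 11 of 21 open (52.4%) and a median of 2. Tbxas1, the thromboxane synthase, had 30 regions, Cyp46a1 12 and Ptgis, with a promoter peak in replicate 1 only, 8. Cyp11a1, Cyp11b1 and Cyp11b2, of steroid synthesis in adrenal and gonad, had no promoter peak.

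Markers of the tissue and of others it could carry along were read the same way. All 12 genes of stomach epithelium had an open promoter, with a median of 6.5 regions (Cdh1 19, Tff1 13, Epcam 9), and all 6 of visceral smooth muscle (median 4; Mylk 17, Actg2 7, Cnn1 4). Of 12 hepatocyte genes 5 were open (median 1.5; Afp, Apob and Cps1 with 4 each), and Alb, Ahsg and Cps1 were among the 7 without a promoter peak. Alb and Ahsg had no shared region in their loci. Of 6 lung genes 1 was open, Foxj1, while Scgb1a1, Scgb3a2 and Sftpa1 were not (median 2.5; Foxj1, Scgb1a1 and Sftpc with 3 each). The kidney list had 3 of 6 open (median 3.5; Nphs1 7, Lrp2 6, Slc34a1 4), with Slc22a6, Slc34a1 and Umod without, and the intestinal list 4 of 8 (median 5; Vil1 7, Slc5a1 6, Cdx1 5), with Cdx1, Cdx2 and Fabp6 without. The part of such cells in the P450 counts was not tested.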

How the data were processed

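Both libraries were used. The authors deposited, per replicate, peaks of at most 150 bp with a signal, and hotspots with the −log10 of a q value. Per the file headers' layout the peak signal has no stated unit. Per the deposited file lists, both were made from each replicate's own filtered alignments to mm10. Not given in the sources used here are the aligner, the peak caller and the thresholds. The read depth is unknown, which limits the weak sites that could be called. Peaks on the 19 autosomes, X and Y were kept, 139374 in replicate 1 and 152779 in replicate 2. Overlapping peaks of both replicates were joined into 105543 shared regions (Python 3.11.15, numpy 2.4.6, checked with bedtools 2.31.1), and percentiles rank the signal within a replicate's peak list. Genes came from GENCODE M21, after 27 repeated symbols were dropped. Gene lists were described by counts and medians, with 95% Wilson intervals from scipy 1.17.1, and no tests were run across genes. The counting was tested on simulated data. Figures used matplotlib 3.10.9.

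Every member is named under its subfamily. Signals are given for the 30 open members of highest rank, and for the strongest region away from starts in the 10 loci with most regions, the last 3 taken in order of symbol from 7 loci tied at 5 regions. Of each list, the 3 genes with most regions and up to 3 without an open promoter are named, except for 1 gene that is not reported here. The members, lists and strings were chosen with earlier results of these data known. Other genes and regions were named after their values were seen. Alternatives covered the replicates, the promoter window, starts, flanks, overlap, signal and hotspots.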

Additional observations from a re-analysis of the deposited data

How the results depend on the processing

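The count of 32 open members stayed within 24 to 36, and the count of 38 loci without a shared region within 26 to 48, under every alternative run. Wherever the same count was made over all protein-coding genes, the members' share stayed below that of all genes for open promoters and above it for empty loci. With the stronger 50% of peaks 24 members were open (29.6%), against 59.2% of all genes. Counts of regions moved more. The median of 1 shared region per member locus lay between 1 and 2 with each replicate left out, was 0 with the stronger 50% of peaks, with the gene body alone and without regions at starts, and 4 with 50 kb on either side, against 2, 2, 1 and 10 for all genes. The 139 distinct regions became 199 to 212 with each replicate left out, 87 with the stronger 50%, 72 with the gene body alone, 80 without regions at starts and 293 with 50 kb. Of the 16 strings, 9 were more frequent in member regions than in all regions, and 7 to 9 were under the alternatives. No paired analysis was possible because there is 1 group. Depth is unknown, so a missing peak shows no absence of accessibility.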

Other observations

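At Cyp3a16, a form known from fetal liver (chr5:145436309-145469723), the replicates differed more than at any other member. Replicate 2 had 13 peaks in the locus and replicate 1 had 2, and none overlapped. The 13 peaks lay upstream of the gene over 9.23 kb, the nearest 893 bp from its start, with signals of 10 to 18, all at or below percentile 1.16 of replicate 2. Of the 32-base words in that stretch 65.4% occur once in the genome. Among all protein-coding genes 166 loci differed by 11 peaks or more, and Cyp3a16 was the only one of them without a shared region. In 79 of 81 member loci the replicates differed by 3 peaks or fewer, a count not made over all loci. Of these 79, 19 had no peak of either replicate. Besides Cyp3a16 the exception was Cyp4v3, with 12 peaks in replicate 1 and 7 in replicate 2, of which 7 regions were shared. The cause was not tested.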
